A study of Homo sapiens with 36 samples.

Results

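The AP-1 and EGR immediate early genes were followed in 36 RNA-seq libraries of 2 human acute myeloid leukaemia cell lines. The members were the named genes FOS, FOSB, FOSL2, JUN, JUNB, JUND, EGR1, EGR2, EGR3 and IER2, which are 10 of the 35460 genes summed from the deposited transcript values. MOLM-13 cells received DMSO, the vehicle, or A9 at 0.125 µM, and MONO-MAC-6 cells received DMSO or A9 at 0.25 µM, all for 72 h. Per the labels, A9 is a PROTAC, a compound that brings its targets to the ubiquitin system for degradation, and the cells are wild type. The design text names IKK2 and NR4A1 as targets and the title names IKK1 and NR4A1. All groups grew in RPMI medium with serum and antibiotics. Each group held 9 libraries with a first and a second number, and the design text gives an N of 3 without saying which number marks it. The 3 libraries with the same first number were averaged, which left 3 samples per group. Averaging by the second number instead gave 4, 6 and 8 members called in place of the 0, 2 and 2 reported below for MOLM-13, MONO-MAC-6 and their difference. That setting also called 5440 of 11596, 8703 of 12869 and 8505 of 13408 genes tested, so passing there was common among all genes. Nothing in the labels says that samples came from separate cultures, so p-values measure the spread between these samples, which may be technical. The dose differed between the lines, and in any contrast of the lines the part of the dose cannot be told apart.

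AP-1 is a family of paired transcription factors. FOS, FOSB, FOSL1 and FOSL2 proteins pair with JUN, JUNB or JUND proteins through a leucine zipper and bind DNA as dimers, while the EGR proteins are zinc finger factors. Many of these genes are immediate early genes: their mRNA appears within minutes of a growth, stress or cytokine signal, without new protein synthesis, and is short-lived. Signals reach them through MAP kinases, serum response factor with its ETS partners, and CREB. In monocytic cells, EGR1 and AP-1 factors are known for their part in macrophage differentiation and inflammatory gene expression. The values here were taken 72 h after the compound was added, long after the first wave of such a response.

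The promoters of 3 members are shown: EGR1 and FOS because they are the members that passed the test of A9, and JUND as an AP-1 gene that did not, with letters known as binding sites of serum response factor and CREB. Sequences are RefSeq's (GRCh38.p14), written 5′ to 3′ on the gene's own strand, and lie upstream of the annotated start. Capitals mark CArG boxes, the core of serum response elements, in EGR1 (chr5:138465329-138465448, plus strand), the core letters TGACG of a cyclic AMP response element in FOS (chr14:75278674-75278773, plus strand), and the full element TGACGTCA in JUND (chr19:18281743-18281842, minus strand).
EGR1: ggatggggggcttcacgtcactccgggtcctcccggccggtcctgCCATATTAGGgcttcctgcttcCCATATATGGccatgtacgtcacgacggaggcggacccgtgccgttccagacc
FOS: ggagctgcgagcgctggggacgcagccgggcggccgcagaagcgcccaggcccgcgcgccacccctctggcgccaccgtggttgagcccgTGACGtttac
JUND: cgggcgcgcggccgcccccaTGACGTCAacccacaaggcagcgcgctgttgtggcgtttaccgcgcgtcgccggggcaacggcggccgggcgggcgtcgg
The EGR1 stretch held a pair of CArG boxes, beginning at -105 and -83 from the start. Windows from 250 bases before to 50 bases after the start were searched on both strands. A window was found for 9 of the 10 members, and a gene with several starts counted once, with a match in any of its windows. A CArG box was in 2 members, EGR1 and EGR2, and in 1.6% of the 27305 genes with a window. FOS had none within its window, but letters further upstream were not searched, so a CArG box may lie there. TGACGTCA was in 1 member (JUND) and in 2.25% of all genes, TGANTCA, the AP-1 site, in 1 member (FOSL2) and in 9.37%, and GCGNGGGCG, the EGR site, in 2 members (EGR1 and EGR2) and in 11.2%. TGACG, whose letters lie within TGACGTCA, was in 9 of 9 members and in 28.4% of all genes. A kappa B motif was in 0 of the 9 and in 7.09%. These matches describe the letters of the windows and are not shown to be used sites.

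Values were TPM, abundances corrected for transcript length and scaled to 1000000 in each library, so levels of different genes can be compared within a library. TPM hold no counts, so the read depth behind them is unknown and counting error cannot be stated. Of the 10 monocytic and myeloid markers, 7 to 9 were at 1 TPM or more in each group. Their summed level was 499 to 548 TPM with DMSO and 716 to 821 TPM with A9 in MOLM-13, and 3520 to 4080 and 8260 to 8570 TPM in MONO-MAC-6. LYZ, lysozyme, carried most of the difference, with means of 133 and 327 TPM in MOLM-13 and 3410 and 7680 TPM in MONO-MAC-6. Not every marker went that way: ITGAM averaged 6.73 and 4.86 TPM in MOLM-13, and MPO 51.9 and 37.7 TPM in MONO-MAC-6. T cell markers summed to at most 0.417 TPM with CD3E and CD2 at 0, epithelial markers to at most 0.419 TPM with KRT19 at 0, and stromal markers to at most 1.46 TPM. HBB, an erythroid marker, was at 0, while HBA1, another, averaged 6.72 TPM in MONO-MAC-6 with DMSO. The erythroid markers summed to 5.18 to 8.66 TPM with DMSO and 2.27 to 4.55 TPM with A9 in that line; the part of the myeloid and other markers in the results was not tested. MONO-MAC-6 DMSO sample 1 stood apart. Genes ranked by transcript length into 4 equal bins showed it: the bin with the longest transcripts lay at a median of -0.61 on the log2 scale against the mean of that line in this sample, and between 0.062 and 0.16 in the other 5 samples. In MOLM-13 the same bin ran from -0.35 in A9 sample 3 to 0.31 in DMSO sample 1.

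With the vehicle alone, the abundant members were not the same in the 2 lines. In MOLM-13 with DMSO the order of levels was JUND (106 TPM), JUNB (58.2), IER2 (45.3), FOSL2 (20.1), FOS (8.99), FOSB (0.786), EGR1 (0.579), EGR3 (0.226), JUN (0.103) and EGR2 (0.0225). FOSB and EGR1 overlapped, and no other neighbours in that order did. In MONO-MAC-6 with DMSO the order was IER2 (81.9 TPM), JUNB (74.9), JUND (43.8), EGR1 (31.6), FOS (28.5), FOSL2 (26.2), FOSB (0.744), JUN (0.428), EGR2 (0.217) and EGR3 (0.159). There IER2 overlapped with JUNB, EGR1 with FOS, FOS with FOSL2, and FOSB with JUN. Set side by side, the mean of EGR1 was 54.6-fold and that of FOS 3.17-fold higher in MONO-MAC-6, and that of JUND was 2.43-fold higher in MOLM-13. These differences between the lines were not tested. JUN, often taken as the archetype of AP-1, stayed under 1 TPM in both lines with DMSO.

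**Figure D1:**
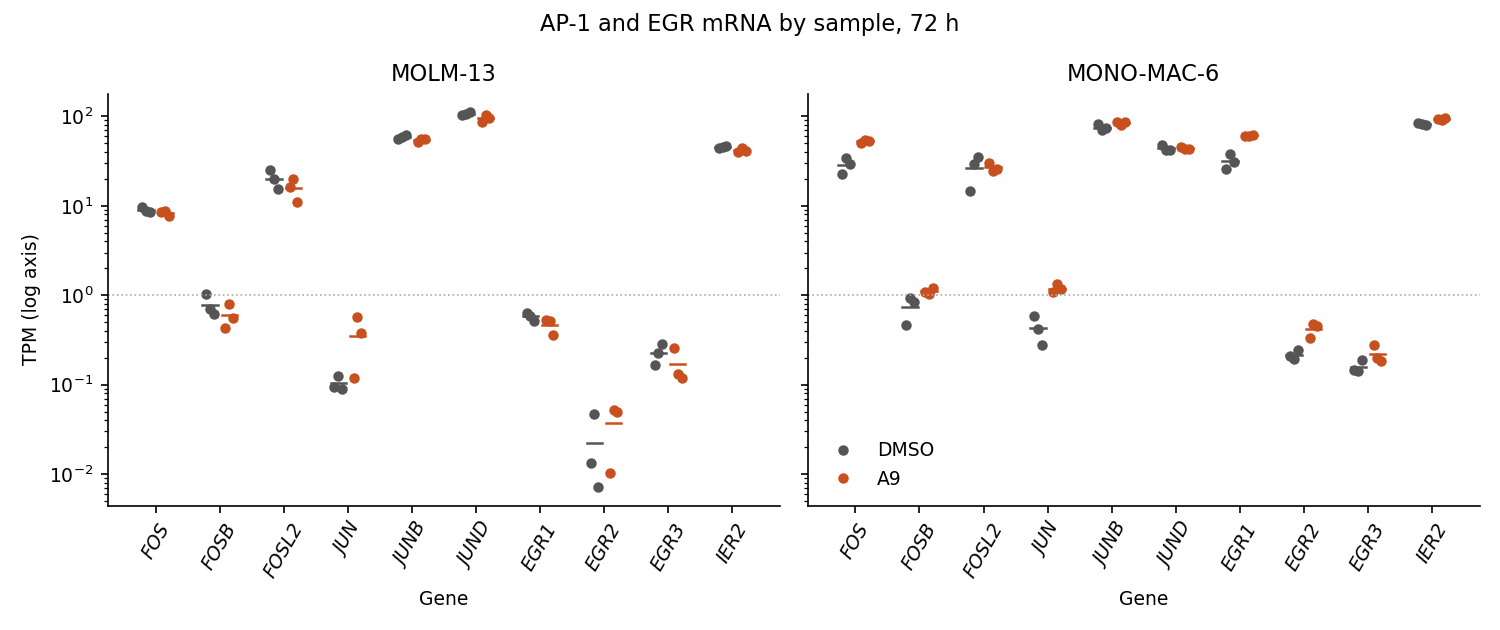
TPM on a log axis of the 10 members in the 3 DMSO and 3 A9 samples of each line, with bars at the group means and a dotted line at the filter of 1 TPM. In MONO-MAC-6 the A9 samples of EGR1 (60.5 to 61.9) and FOS (50.5 to 54.6) lay above the DMSO samples, and EGR1 was under 1 TPM in every MOLM-13 sample.

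The effect of A9 was asked in each line. In MONO-MAC-6, EGR1 and FOS mRNA rose, to 1.93-fold and 1.85-fold of the DMSO means, and the other 6 members that could be tested did not pass the threshold. In MOLM-13 none of the 5 members that could be tested passed. A gene was tested where its mean reached 1 TPM in a group, with limma on log2(TPM + 1) and Benjamini-Hochberg adjustment over all genes tested, and passed at an adjusted p under 0.05. Fold changes below are on that log2(TPM + 1) scale, which understates the change of low genes. In MONO-MAC-6, 8 members passed the filter and 2 were called, and 3.36% of the 12869 genes tested were called. At an unadjusted p under 0.05 in limma it was 4 of the 8 members and 20.5% of all genes. JUN, among those 4, and FOSB, among the 8, reached the filter through their A9 samples alone. These counts are therefore not a test of the members. In MOLM-13, 5 members passed the filter and 0 were called, against 0.121% of 11596 genes, and 0 members had an unadjusted p under 0.05 in limma, where 7.89% of all genes did. In bulk RNA, a change in the share of cells that carry an mRNA and a change in its amount per cell cannot be told apart.

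EGR1 (ENSG00000120738, chromosome 5, 138465490 to 138469315, plus strand) encodes the zinc finger factor whose promoter is shown above. In MONO-MAC-6 it measured 25.9, 38.1 and 30.9 TPM in the DMSO samples and 60.9, 60.5 and 61.9 TPM in the A9 samples. The groups did not overlap, and the A9 samples lay closer together than the DMSO samples, of which sample 1 was the lowest. The means were 31.6 ± 6.11 and 61.1 ± 0.695 TPM (SD, n = 3). The log2 fold change was 0.94 (95% interval 0.60 to 1.29, limma adjusted p 0.0249). Over the 9 libraries of each group the values ran from 25.7 to 38.6 TPM with DMSO and from 59.2 to 63.7 TPM with A9. The change was 0.77 with median-ratio scaling and 0.73 after removal of the length trend of each sample, and both passed (adjusted p 0.0142 and 0.0116 by limma). With no filter on low genes the adjusted p was 0.0596. When each sample was left out in turn, EGR1 passed in 2 of 6 fits, without DMSO sample 1 (0.82, adjusted p 0.000449) and without DMSO sample 2 (1.08, adjusted p 0.0323). The fit without DMSO sample 1 called 3204 of 12924 genes, so passing in it was common. EGR1 missed the threshold without DMSO sample 3 (0.0718) and without A9 sample 1 (0.125), 2 (0.146) or 3 (0.149), with log2 fold changes of 0.94 to 0.95.

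FOS (ENSG00000170345, chromosome 14, 75278774 to 75282230, plus strand) encodes the founding Fos partner of AP-1. In MONO-MAC-6 it measured 22.4, 34.1 and 29 TPM with DMSO and 50.5, 54.6 and 52.6 TPM with A9. Again no A9 sample reached down to a DMSO sample, and DMSO sample 1 was the lowest. The means were 28.5 ± 5.87 and 52.6 ± 2.04 TPM (SD, n = 3). The log2 fold change was 0.88 (95% interval 0.50 to 1.26, limma adjusted p 0.0392). The change was 0.71 with scaling and 0.78 with the length trend removed (limma adjusted p 0.0153 and 0.00881). With no filter the adjusted p was 0.0891. Among fits that left out 1 sample, FOS passed only without DMSO sample 1 (0.72, limma adjusted p 0.00045), where 3204 of 12924 genes were called. The adjusted p was 0.0572 without DMSO sample 2, 0.0908 without DMSO sample 3, and 0.157, 0.210 and 0.194 without A9 sample 1, 2 and 3. The gene had 10 transcripts in the tables. FOS-201 held 50.7% of its TPM with DMSO and 56.1% with A9, at 14.4 ± 2.02 TPM and 29.5 ± 0.977 TPM (SD, n = 3), and FOS-209, a transcript annotated as not coding, held 14.8% and 11.9%.

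JUN (ENSG00000177606, chromosome 1, 58780788 to 58784327, minus strand) was low. In MONO-MAC-6 it measured 0.588, 0.415 and 0.281 TPM with DMSO and 1.08, 1.32 and 1.16 TPM with A9. The A9 samples were all higher, but the log2 fold change of 0.62 (95% interval 0.31 to 0.92) missed the threshold with a limma adjusted p of 0.0593. It passed without DMSO sample 1 (0.70, limma adjusted p 0.00742), in a fit that called 3204 of 12924 genes. It also passed when only protein-coding transcripts were summed, at an unchanged 0.62 (limma adjusted p 0.0382). It missed with scaling (0.53, adjusted p 0.108), and with the length trend removed it was 0.38 (adjusted p 0.358). With a pseudocount of 0.1 it was 1.32 (adjusted p 0.0844). In MOLM-13 JUN measured 0.0946, 0.126 and 0.0896 TPM with DMSO and 0.118, 0.566 and 0.376 TPM with A9, under the filter, and the groups overlapped.

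FOSB (ENSG00000125740, chromosome 19, 45467995 to 45475179, plus strand), a Fos partner with a truncated splice form, was low as well. Its MONO-MAC-6 values were 0.469, 0.932 and 0.831 TPM with DMSO and 1.09, 1.03 and 1.22 TPM with A9, without overlap, and its log2 difference of 0.28 had a limma adjusted p of 0.302. That difference was 0.17 without DMSO sample 1, 0.076 with the length trend removed and 0.56 with a pseudocount of 0.1, and none of these passed. EGR2 (ENSG00000122877, chromosome 10, 62811996 to 62919900, minus strand), a relative of EGR1, measured 0.211, 0.193 and 0.245 TPM with DMSO and 0.329, 0.471 and 0.457 TPM with A9, without overlap and under the filter. EGR3 (ENSG00000179388, chromosome 8, 22687659 to 22693302, minus strand) ran from 0.144 to 0.187 TPM with DMSO and from 0.182 to 0.279 TPM with A9, and the groups overlapped. How many reads lie behind such levels is unknown here.

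The abundant members JUNB, IER2, JUND and FOSL2 did not pass in MONO-MAC-6. JUNB (ENSG00000171223, chromosome 19, 12791496 to 12793315, plus strand), a Jun partner with a strong response to cytokines, measured 81.0, 69.7 and 73.9 TPM with DMSO and 87.4, 78.9 and 85.7 TPM with A9, and the groups overlapped. Its change of 0.17 (95% interval -0.05 to 0.38, limma adjusted p 0.341) was close to the median of 0.16 over all genes tested, and with scaling it was -0.0097. IER2 (ENSG00000160888, chromosome 19, 13150415 to 13154908, plus strand), an immediate early gene outside both families, measured 83.1, 82.4 and 80.2 TPM with DMSO and 93.6, 90.7 and 95.4 TPM with A9. The groups did not overlap, yet the change of 0.18 (limma adjusted p 0.215) was also near the median of all genes and was 0.0098 with scaling. Without DMSO sample 1, where the median over all genes was 0.027, JUNB (0.22, limma adjusted p 0.0261) and IER2 (0.20, limma adjusted p 0.0179) passed. That fit called 3204 of the 12924 genes tested, so passing in it was not particular to these members.

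JUND (ENSG00000130522, chromosome 19, 18279760 to 18281622, minus strand), the Jun member known for steady expression, measured 48.0, 41.5 and 41.9 TPM with DMSO and 45.0, 43.0 and 43.1 TPM with A9. Its log2 fold change was 0.00027 (95% interval -0.22 to 0.22, limma adjusted p 0.999), and the sign differed between settings. FOSL2 (ENSG00000075426, chromosome 2, 28392448 to 28417312, plus strand), a Fos partner with the longest transcripts of the 10 members, measured 14.7, 29.2 and 34.8 TPM with DMSO and 30.1, 24.7 and 26 TPM with A9. DMSO sample 1, in which long transcripts were low, was the lowest of the 6. The change was 0.11 (95% interval -0.62 to 0.85, limma adjusted p 0.822), and it was -0.24 (limma adjusted p 0.128) without that sample, -0.054 with scaling and -0.21 with the length trend removed.

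In MOLM-13 the 5 members tested all had a log2 fold change below 0, with a median of -0.12 beside -0.046 over all genes tested, and none passed. FOS measured 9.72, 8.70 and 8.55 TPM with DMSO and 8.48, 8.73 and 7.74 TPM with A9, with overlap, a change of -0.10 (95% interval -0.36 to 0.16, limma adjusted p 0.869). JUND measured 103, 106 and 111 TPM with DMSO and 86.3, 103 and 95.1 TPM with A9, a change of -0.17 (95% interval -0.36 to 0.03, limma adjusted p 0.732). JUNB ran from 55.1 to 61.0 TPM with DMSO and from 52.0 to 56.2 TPM with A9, with overlap, a change of -0.09 (95% interval -0.26 to 0.08). FOSL2 measured 25.2, 19.9 and 15.2 TPM with DMSO and 16.4, 20.1 and 11.0 TPM with A9, with overlap, a log2 difference of -0.33 (95% interval -0.96 to 0.29). IER2 measured 44.3, 45.5 and 46.1 TPM with DMSO and 40.3, 44.0 and 40.7 TPM with A9, and was the member whose A9 samples all lay below the DMSO samples, a pattern that 6.42% of the genes tested had. EGR1 measured 0.638, 0.587 and 0.512 TPM with DMSO and 0.529, 0.517 and 0.363 TPM with A9, with overlap and under the filter. FOSB (0.621 to 1.03 TPM with DMSO and 0.431 to 0.796 with A9), EGR2 (0.00721 to 0.0469 and 0.0103 to 0.0527) and EGR3 (0.168 to 0.283 and 0.119 to 0.255) overlapped too and were not tested.

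Counting samples rather than p-values, the A9 samples lay wholly above the DMSO samples for 6 of the 10 members in MONO-MAC-6: FOS, FOSB, JUN, EGR1, EGR2 and IER2. Of the 8 members tested it was 5, beside 27.2% of all genes tested in that line. JUN and FOSB reached the filter of 1 TPM through the A9 samples alone, and EGR2 stayed under it. The median log2 fold change of all genes there was 0.16, and 0.0058 with scaling.

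**Figure D2:**
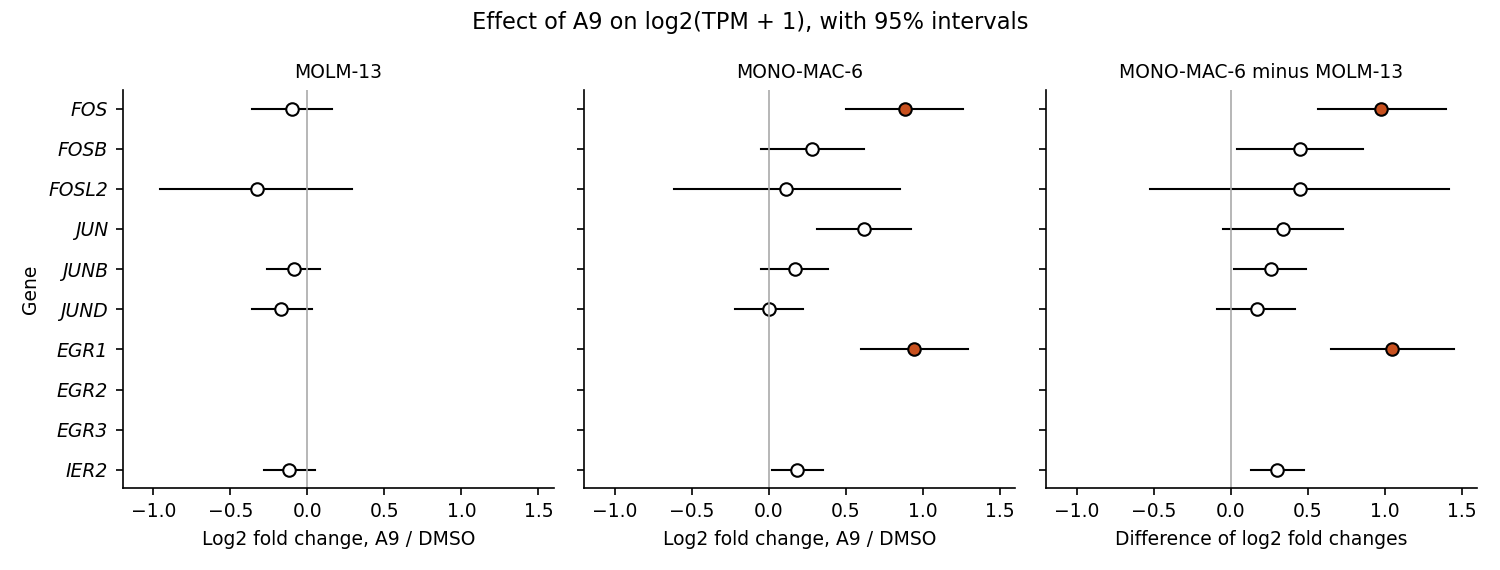
Log2 fold changes of A9 against DMSO on the log2(TPM + 1) scale, with 95% intervals from limma, in MOLM-13, in MONO-MAC-6, and their difference; filled points have an adjusted p under 0.05 and genes under the filter are left blank. EGR1 (0.94) and FOS (0.88) are filled in MONO-MAC-6 and in the difference, and no gene is filled in MOLM-13.

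The response of the lines to A9 was then compared directly, by an interaction term over the 12 samples. The difference, MONO-MAC-6 minus MOLM-13, passed for EGR1, at 1.05 (95% interval 0.65 to 1.45, limma adjusted p 0.0121), and for FOS, at 0.98 (95% interval 0.57 to 1.40, limma adjusted p 0.0199). That is 2 of 8 members tested, where 2.99% of 13408 genes were called. EGR1 was under 1 TPM in MOLM-13, so for this gene a differing response and a lack of expression cannot be told apart, whereas FOS stood at 8.99 TPM there. With 1 sample left out, EGR1 passed 12 of 12 times. FOS passed 6 of 12 times, and its adjusted p was 0.0621 and 0.0565 without MOLM-13 DMSO sample 1 and 2, 0.054 and 0.0548 without MOLM-13 A9 sample 1 and 3, and 0.0679 and 0.0624 without MONO-MAC-6 A9 sample 2 and 3. IER2 had a difference of 0.30 (limma adjusted p 0.078), and the other 5 ran from 0.17 for JUND to 0.45 for FOSL2 and FOSB, with adjusted p-values from 0.249 to 0.524. FOSB and JUN averaged under 1 TPM in both MOLM-13 groups and were tested only through the MONO-MAC-6 A9 samples. For these genes, too, a differing response and low expression cannot be told apart. The median difference over all genes was 0.20.

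The make-up of each family is described next from shares of summed TPM, which carry no test. Among the Fos genes FOS, FOSB, FOSL1 and FOSL2, FOS held 36.6% to 45.3% of the mRNA in the MONO-MAC-6 DMSO samples and 53.4% to 58.9% in the A9 samples, without overlap. The mean share of FOSL2 was 37.1% with DMSO and 28.9% with A9, with overlap, and that of FOSL1 20% and 13.2%, without overlap, while the level of FOSL1 itself was 13.4 ± 1.46 and 12.3 ± 0.593 TPM (SD, n = 3). The summed Fos level was 49.4 TPM in DMSO sample 1, 78.0 and 79.3 TPM in the other DMSO samples, and 91.5 to 94.6 TPM with A9. In MOLM-13 FOSL2 held the largest mean share, 47.0% with DMSO and 42.9% with A9, and FOS held 21.4% and 23.1%.

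Among the Jun genes, JUND led in MOLM-13 with a mean share of 64.6% with DMSO and 63.3% with A9. JUNB led in MONO-MAC-6 with 62.9% and 65.1%. Its samples ran from 62.4% to 63.7% with DMSO and from 64.0% to 65.9% with A9, a narrow gap. JUN held at most 1.07% of the Jun mRNA in any sample. The Jun mRNA was nearly all JUNB and JUND in every group.

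**Figure D3:**
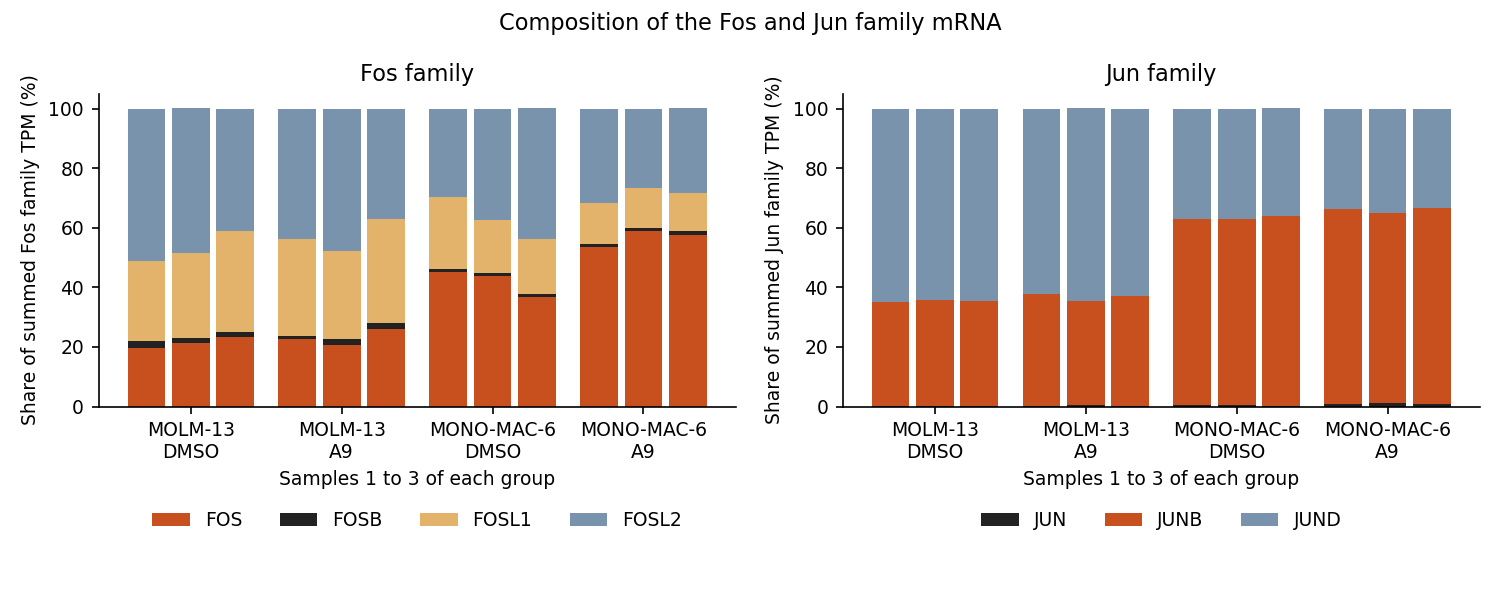
Share of the summed TPM of the Fos family and of the Jun family held by each gene in samples 1 to 3 of each group. FOS takes 36.6% to 45.3% of the Fos bars in MONO-MAC-6 with DMSO and 53.4% to 58.9% with A9, and JUND is the larger Jun part in MOLM-13 and JUNB in MONO-MAC-6.

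Other genes of the pathway were taken from lists. Like the members, these lists were chosen with earlier results of these data known. The shares of all genes beside their counts are therefore not a test of the lists. Among 25 other immediate early genes, 19 were tested in MONO-MAC-6 and 3 rose, with 0 lower, where 2.51% of all genes rose. BTG2, an antiproliferative gene, rose from 1.17 ± 0.405 TPM under DMSO to 5.47 ± 0.679 TPM under A9 (SD, n = 3), or 1.59 in log2 (limma adjusted p 0.00911). KLF4, a zinc finger factor of monocyte differentiation, rose from 4.21 ± 0.682 TPM under DMSO to 9.0 ± 0.539 TPM under A9 (SD, n = 3), or 0.95 in log2 (limma adjusted p 0.0212). DUSP1, a phosphatase that shuts off MAP kinases, rose from 0.793 ± 0.119 TPM under DMSO to 2.19 ± 0.271 TPM under A9 (SD, n = 3), or 0.83 in log2 (limma adjusted p 0.0213). For each of the 3 genes the A9 samples lay above the DMSO samples, as for 27.2% of all genes tested in that line. The 3 were named because they passed as higher, so this adds no further support. DUSP1 reached the filter through the A9 samples alone. When 1 sample was left out, BTG2 passed in 3 of 6 fits, missing without DMSO sample 2 (0.0524) and A9 sample 2 (0.0726) or 3 (0.0743). KLF4 passed in 2, missing without DMSO sample 2 (0.0977) and A9 sample 1 (0.125), 2 (0.136) or 3 (0.138). DUSP1 passed only without DMSO sample 1 (0.0028), in a fit that called 3204 of 12924 genes. Its adjusted p elsewhere ran from 0.0696 without DMSO sample 3 to 0.141 without A9 sample 3. In MOLM-13, 18 of the list were tested, 0 passed and 0 had an unadjusted p under 0.05 in limma. Its most abundant member GADD45B, a stress gene, stood at 80.5 ± 4.33 and 80.9 ± 3.62 TPM (SD, n = 3).

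The list of genes known as AP-1 targets held 13 genes. In MONO-MAC-6, 7 were tested, and 3 rose with 0 lower, beside the 2.51% of all genes that rose. HMOX1 among them reached the filter through the A9 samples alone. CXCL8, a neutrophil chemokine, rose from 4.41 ± 0.131 TPM under DMSO to 36.8 ± 5.27 TPM under A9 (SD, n = 3), or 2.79 in log2 (limma adjusted p 0.000925). HMOX1, haem oxygenase, rose from 0.280 ± 0.0928 TPM under DMSO to 8.58 ± 3.53 TPM under A9 (SD, n = 3), or 2.84 in log2 (limma adjusted p 0.00628). PLAUR, the urokinase receptor, rose from 60.9 ± 1.54 TPM under DMSO to 94.3 ± 4.33 TPM under A9 (SD, n = 3), or 0.62 in log2 (limma adjusted p 0.0114), but missed the threshold with scaling (0.45, limma adjusted p 0.115). With 1 sample left out, CXCL8 passed 6 of 6 times and HMOX1 5 times, missing without A9 sample 3 (0.051). PLAUR passed in 2, missing without DMSO sample 2 (0.0613) and A9 sample 1 (0.0697), 2 (0.103) or 3 (0.103). These genes are also known targets of other pathways. In MOLM-13, 5 were tested and 0 passed, while 3 had an unadjusted p under 0.05 in limma, beside 7.89% of all genes. Those 3 were HMOX1, TNF and CD44, of which HMOX1 and TNF are given after their values were seen. HMOX1 had 1.45, 1.6 and 1.57 TPM under DMSO and 5.41, 5.77 and 3.64 TPM under A9, without overlap (1.21, limma adjusted p 0.0844). TNF, a cytokine, had 3.12, 3.32 and 7.18 TPM under DMSO and 0.128, 1.44 and 1.56 TPM under A9, also without overlap but lower (-1.46, limma adjusted p 0.34). In MONO-MAC-6 TNF went the other way, from 0.109, 0.181 and 0.154 TPM under DMSO to 2.14, 0.191 and 2.09 TPM under A9. That change did not pass either (0.98, limma adjusted p 0.221). The most abundant gene of the list in MOLM-13, the adhesion receptor CD44, stood at 62.0 ± 15.2 and 43.8 ± 6.65 TPM (SD, n = 3), with overlap (-0.48, limma adjusted p 0.629).

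In the remaining lists no gene passed in either line. Their counts of unadjusted p-values stand beside shares of all genes of 7.89% (MOLM-13) and 20.5% (MONO-MAC-6). Of 12 wider AP-1 partners, MOLM-13 allowed a test of 9 and MONO-MAC-6 of 10, with 1 and 2 unadjusted p-values under 0.05 in limma. MAFG, a small Maf protein, was their most abundant member. In MOLM-13 its level was 43.1 ± 1.79 TPM without A9 and 47.0 ± 3.72 TPM with it (SD, n = 3), and MONO-MAC-6 had 110 ± 12.3 and 126 ± 2.47 TPM (SD, n = 3). Of EGR4 and the corepressors NAB1 and NAB2, which bind EGR proteins, 2 were tested in each line, with 1 and 0 unadjusted p-values under 0.05 in limma. The MOLM-13 level of NAB2 was 19.1 ± 2.24 TPM under DMSO and 13.1 ± 1.44 TPM under A9 (SD, n = 3), a log2 difference of -0.51 (limma adjusted p 0.277). MONO-MAC-6 had 16.2 ± 1.55 and 15.6 ± 0.869 TPM (SD, n = 3).

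Upstream, 21 of 21 kinases and factors were tested in each line, with 0 and 3 unadjusted p-values under 0.05 in limma. MAP2K2, a kinase above ERK, was the most abundant. Its MOLM-13 level was 120 ± 2.03 TPM under DMSO and 120 ± 5.04 TPM under A9 (SD, n = 3), and MONO-MAC-6 had 191 ± 19.2 and 167 ± 6.76 TPM (SD, n = 3). Of 11 genes of ERK output and feedback, 8 were tested in each line, with 1 and 2 such p-values. The MONO-MAC-6 level of SPRY2, a feedback inhibitor, was 36.7 ± 5.07 TPM under DMSO and 33.1 ± 1.39 TPM under A9 (SD, n = 3). The MOLM-13 level of DUSP6, an ERK phosphatase, was 18.2 ± 3.00 TPM under DMSO and 15.6 ± 2.58 TPM under A9 (SD, n = 3). Of 7 heat shock genes, which can mark stress in handling, 5 were tested in each line, with 0 and 1 such p-values, and a median change of 0.02 in MONO-MAC-6. The 1 was HSP90AA1, given after its values were seen. It was lower without overlap in MONO-MAC-6, at 568 ± 17.5 TPM under DMSO and 453 ± 13.5 TPM under A9 (SD, n = 3), or -0.32 in log2 (limma adjusted p 0.0669). HSPA8, a chaperone, stood there at 876 ± 163 and 853 ± 13.4 TPM (SD, n = 3). Its MOLM-13 level was 1230 ± 92.7 TPM under DMSO and 1110 ± 156 TPM under A9 (SD, n = 3).

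**Figure D4:**
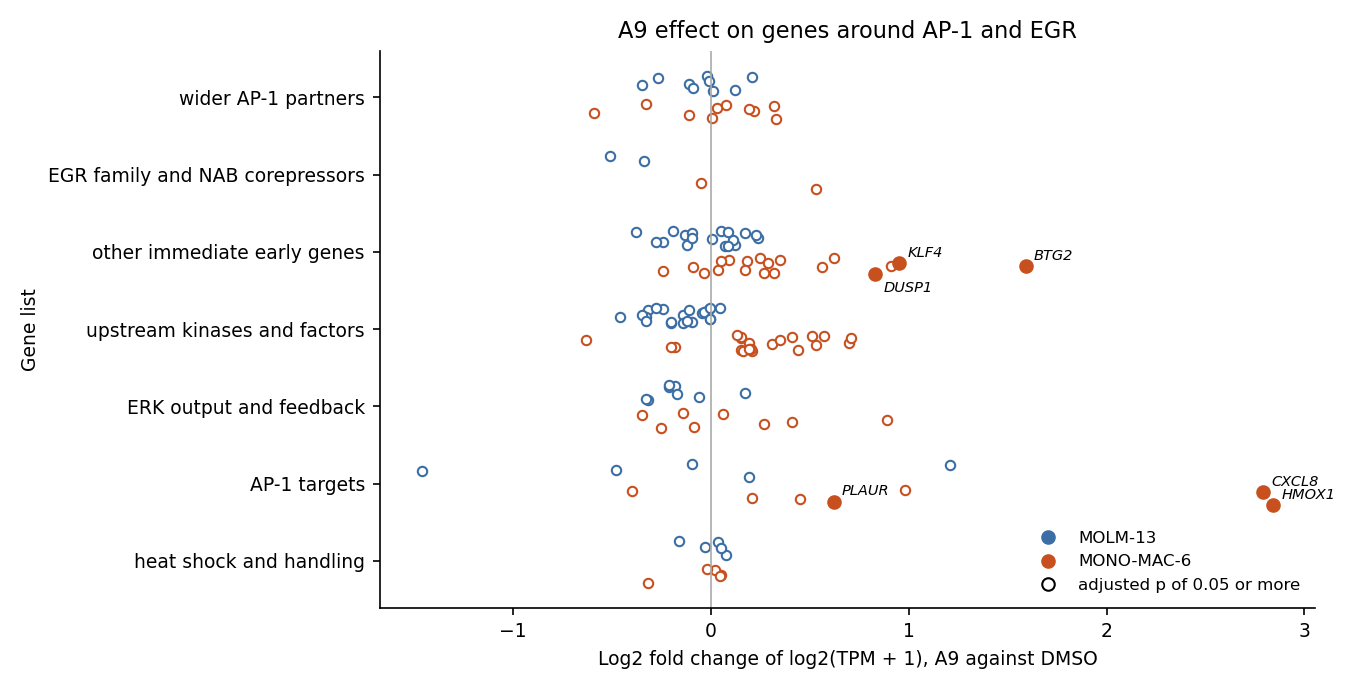
Log2 fold changes of A9 against DMSO on the log2(TPM + 1) scale for the genes of 7 lists that passed the filter, 1 point per gene and line; filled points with names have an adjusted p under 0.05. The filled points are KLF4, DUSP1 and BTG2 among other immediate early genes and PLAUR, CXCL8 and HMOX1 among AP-1 targets, all in MONO-MAC-6.

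The genes whose pattern was most like that of 3 members were ranked by the root mean square difference of log2(TPM + 1), centred within each line, over the 12 samples and among 11052 genes. NXF3 was nearest to FOS (0.068) and to EGR1 (0.082), where the values of FOS and EGR1 themselves spread by 0.34 and 0.36. The mean level of NXF3 was 55.9 TPM under DMSO and 52.6 TPM under A9 in MOLM-13, against 10.6 and 19.6 TPM in MONO-MAC-6. SLC16A6 followed for FOS (0.081) and was among the nearest to EGR1 (0.11), with FAM160A2 next for FOS (0.090) and AP1S2 next for EGR1 (0.091). RAB13 (0.084), IER5L (0.098) and SCX (0.10) were nearest to JUN, whose own spread was 0.27.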

How the data were processed

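The deposited tables hold TPM per transcript for 18 libraries of each line. The authors' TPM were made with tools that the submitters' processing notes list as kallisto and limma, with GRCh38; versions, roles and the annotation release are not given in the sources used here. Of 207175 transcripts, 162526 (78.4%) matched GENCODE 29, with 89.8% to 91.4% of the TPM, and were summed to 35460 genes. Libraries sharing the first number were averaged to 3 samples per group. Where either group averaged 1 TPM or more, log2(TPM + 1) was fitted with limma 3.58.1 (R 4.3.3, trend and robust variance), Benjamini-Hochberg adjusted over all genes, at 0.05. The method was tested on simulated data, with larger changes than those of EGR1 and FOS and without a length trend of the samples. That test therefore does not show that the calls above hold. The lines were compared by an interaction term over 12 samples. Transcripts without a GENCODE 29 match were left out, and 1 of the marker lists is not reported here.

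The members and gene lists were chosen with earlier results of these data known. All members are named; from each list and line up to 3 genes past the threshold in each direction are named, or, where none passed, the most abundant gene; others are said to be chosen after their values were seen. Alternatives were averaging by the second number, a pseudocount of 0.1, no filter, median-ratio scaling, protein-coding transcripts alone, removal of each sample's length trend, the replicate number as a block, and each sample left out in turn.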

Additional observations from a re-analysis of the deposited data

Results flagged for a closer look

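By the limma interaction test over 12 samples, 9 genes among the members and lists had a difference between the lines past the threshold. Over all 13408 genes tested the share was 2.99%. None passed among the 10 wider AP-1 partners, 2 genes of the EGR and NAB list, 21 upstream genes and 9 ERK output genes tested. Values are the log2 fold change in MONO-MAC-6 minus that in MOLM-13, with the limma adjusted p. Among the 8 members tested, EGR1, at 1.05 (0.0121), and FOS, at 0.98 (0.0199), passed. Among 21 other immediate early genes tested they were BTG2, at 1.35 (0.0073), DUSP1, at 0.76 (0.0227), and KLF4, at 0.71 (0.044). Among 7 AP-1 targets tested they were CXCL8, at 2.68 (2.29e-05), HMOX1, at 1.63 (0.0307), and PLAUR, at 0.72 (0.0018). CXCL8 was under 1 TPM in MOLM-13, as was EGR1. HSP90AA1, a chaperone among 5 heat shock genes tested, is named here after its values were seen. It had a difference of -0.40 (0.0161) and passed in neither line alone. With 1 of the 12 samples left out, BTG2, CXCL8, PLAUR and EGR1 passed 12 of 12 times, HSP90AA1 8, DUSP1 and FOS 6, HMOX1 4 and KLF4 2 times. With scaling the adjusted p was 0.199 for PLAUR, 0.0785 for DUSP1 and 0.0978 for HSP90AA1. With the length trend removed it was 0.0848 for KLF4, 0.122 for DUSP1 and 0.0826 for HSP90AA1. With no filter it was 0.0632 for KLF4 and 0.0587 for HMOX1. KLF4 also missed with a pseudocount of 0.1 (0.0693) and with protein-coding transcripts (0.113). The dose was not the same in both lines, and its part cannot be told apart from that of the line.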

How the results depend on the processing

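The samples are 3 per group, and how many reads lie behind a TPM is unknown, which limits what can be said of members under 1 TPM. Members called numbered 0 in MOLM-13, 2 in MONO-MAC-6 and 2 in the interaction. With libraries averaged by the second number they numbered 4, 6 and 8, and the genes called went from 14, 433 and 401 to 5440, 8703 and 8505; each such average spans all 3 samples of a group, so the spread between samples is averaged out. With no filter, 0 members were called in MONO-MAC-6, and 4 and 254 genes in MOLM-13 and MONO-MAC-6. Scaling gave 48 genes in MOLM-13. Removing the length trend gave 171, 1165 and 747 genes. Leaving out 1 sample gave 0 to 5 members in MONO-MAC-6 (5 without DMSO sample 1) and 1 to 2 in the interaction, and 2 to 8, 59 to 3204 (3204 without DMSO sample 1) and 197 to 548 genes. The share of calls that were higher in MONO-MAC-6 was 74.6%, 61.6% with scaling and 53.8% with the length trend removed; in the interaction it was 64.3%, and 45.8% with the length trend removed. The cause of the other changes was not tested.

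The direction reversed in MONO-MAC-6 for FOSL2 with scaling (-0.0539), after length-trend removal (-0.208) and among fits without 1 sample, which ran from -0.242 (without DMSO sample 1) to 0.352, for JUNB with scaling (-0.00972), and for JUND by the second number (-0.00191), with scaling (-0.173), after length-trend removal (-0.109) and without DMSO sample 2 (-0.0356), DMSO sample 3 (-0.0299) or A9 sample 1 (-0.0209), in a range up to 0.0664 without DMSO sample 1. In the interaction it reversed with the length trend removed for FOSL2 (-0.0054) and JUN (-0.00882) and with scaling for JUND (-0.0578). None of these passed the test.

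Same-numbered DMSO and A9 samples had deviations correlated at 0.361, -0.077 and 0.676 in MOLM-13 and at -0.0271, 0.0877 and -0.0909 in MONO-MAC-6, and not every sample correlated best with its own number, so the numbers were not taken as a pairing. With the replicate block, members called were 0 in MONO-MAC-6 and 1 in the interaction, and genes called were 87, 94 and 207 in MOLM-13, MONO-MAC-6 and the interaction. With that block the limma adjusted p of EGR1 and FOS in MONO-MAC-6 was 0.092 and 0.0986, and in the interaction 0.0527 and 0.0471. Among the list genes it was 0.122 for KLF4, 0.117 for DUSP1 and 0.0922 for PLAUR in MONO-MAC-6, and 0.133 for KLF4, 0.0881 for DUSP1, 0.0806 for HMOX1 and 0.0765 for HSP90AA1 in the interaction.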

Other observations

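Further genes of the lists had values that stood out and were chosen after their values were seen. ZFP36, which encodes a protein that marks short-lived mRNAs for decay, measured 49.8, 98.8 and 89.2 TPM in the MONO-MAC-6 DMSO samples and 137, 150 and 144 TPM in the A9 samples. The groups did not overlap, and the log2 fold change of 0.91 had a limma adjusted p of 0.123. DUSP6, an ERK phosphatase, measured 5.06, 14.1 and 14.1 TPM with DMSO and 18.1, 21.0 and 20 TPM with A9 in the same line, again without overlap (0.89, limma adjusted p 0.237). For both genes DMSO sample 1 was the lowest of the 6. Other list genes were lower with A9. BATF3, a wider AP-1 partner, fell without overlap in each line. Its change was -0.59 in MONO-MAC-6 (limma adjusted p 0.15) and -0.35 in MOLM-13 (limma adjusted p 0.517). ETV4, from the ERK output list, also fell without overlap in each line. Its change was -0.35 in MONO-MAC-6 (limma adjusted p 0.156) and -0.32 in MOLM-13 (limma adjusted p 0.519). NXF3, the gene nearest to FOS and EGR1 in pattern, was higher in MOLM-13 than in MONO-MAC-6 with DMSO (55.9 and 10.6 TPM), whereas FOS (8.99 and 28.5 TPM) and EGR1 (0.579 and 31.6 TPM) were lower there; the likeness covers variation within each line and not the levels of the lines.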
